A study of Anthoceros agrestis with 2 samples.

Results

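CG dyads of the hornwort Anthoceros agrestis were described by the bases that flank them. A CG dyad is the pair of cytosines that a CG dinucleotide places on opposite strands, the cytosine of the plus strand at a position and that of the minus strand at the next position. Each strand of a dyad was read together with the base that follows its CG, so that the pair of following bases gives 10 flank groups, named here by their 4 bases from 5′ to 3′. Palindromes, which read the same on both strands, make up 4 of the groups, among them TCGA with its reverse order of flanks in the group ACGT, the group CCGG with C and G as flanks, and lastly GCGC. The other 6 groups are asymmetric and are written with both strands, as in ACGG/CCGT. Of 4825006 CG dyads on the chromosome scaffolds AnagrOXF.S1 to AnagrOXF.S6, 1386825 had at least 10 reads on each strand and were used. The largest group was CCGC/GCGG with 188863 dyads and the smallest was ACGT with 81890.

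In plants, methylation of CG dyads is copied after replication by the maintenance methyltransferase MET1, which acts on dyads that carry a methyl group on the old strand only. A dyad that is copied faithfully carries the mark on both strands, and a dyad with the mark on a single strand is called hemimethylated. Methylation in CHG (where H is A, C or T) is maintained by the chromomethylase family. In flowering plants it is bound to dimethylated histone H3 lysine 9 in TEs. CG methylation in flowering plants is also found without CHG methylation, for example in the bodies of genes.

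The DNA came from wild-type thalli, the haploid gametophyte, of the Oxford strain at 4 weeks of age, and no other genotype, treatment or tissue was compared. Enzymatic methyl sequencing (EM-seq), in which enzymes convert unmethylated cytosines while methylated cytosines stay, was applied to 2 replicates. Levels are given from the report in which the authors merged the reads of both replicates, followed where replicates were compared by the mean ± SD of the same value in the separate replicate reports. The labels do not state whether the replicates were separate cultures, and no groups of plants were compared. Flank groups and strands were compared within each library, no test was run over the 2 replicates, and each SD is a spread between 2 libraries.

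The merged report held 648374160 calls over cytosines of all contexts and the replicate reports held 323429467 and 325691541, with a median depth of 9, 4 and 4 reads per cytosine on the chromosomes. Bins of 1 kb were classed by their mean CG and CHG levels. Bins with CG of at least 50% and CHG of at least 30% are called CHG-methylated (42154 bins with 385273 paired dyads), and those with CG of at least 50% and CHG below 10% are called CG-only (7256 bins with 63358 paired dyads). The mean CHG level of the bins around the dyads was 63.0% in the first class and 0.385% in the second. A further 16368 dyads lay in bins with CHG between these limits, 921156 in bins with CG below 50%, of which 745419 were in bins with both contexts below 5%, and 670 in bins with too few covered sites. The rule chose bins by the CG level that the dyads themselves make up, so that the mean level within a class is a description. The flanking bases played no part in the choice of bins.

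A single CG-only bin is given as an example of the values of single dyads, and not as typical of its class. The bin AnagrOXF.S2:19926001-19927000 held the most paired dyads (38) of 296 CG-only bins with at least 2 ACGT and 2 TCGA dyads, and was chosen for that number and not for its levels. Its CG level was 63.9% and its CHG level 8.56%. Sequences of 30 bases around dyads on both sides of the change of level within the bin are shown, with the CG and the base on either side of it in capitals and n for a base that does not follow from the trinucleotides in the report.
AnagrOXF.S2:19926317-19926318 (ACGT): ctgctgccatttgACGTgtgcttgncaaat
AnagrOXF.S2:19926349-19926350 (ACGT): ccgctgncattcgACGTgtggttgncaaat
AnagrOXF.S2:19926523-19926524 (TCGA): gtcgaatgncatgTCGAatgnnnnnctgna
AnagrOXF.S2:19926543-19926544 (ACGT): nnnnnctgnaagcACGTncattcgacattg
AnagrOXF.S2:19926551-19926552 (TCGA): naagcacgtncatTCGAcattgncatgtcg
The dyads at 19926317 and 19926349 had levels of 97.4% and 97.1%, and the TCGA dyad at 19926523 had a level of 80.4%. The ACGT dyad at 19926543 was at 0% in both replicates, and the TCGA dyad at 19926551 was at 3.33%. ACGT and TCGA dyads thus lay on both sides of the change of level, and the bin does not show the difference between flank groups. The dyads from 19926153 to 19926523 were all at 80.4% or more, and those from 19926543 on at 15.7% or less. The last 8 of these, from 19926740 to 19927000, lay in the interval listed for the gene AnagrOXF.S2G442000, in a gene list of which only a part was used here.

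In CG-only bins the level of a dyad differed widely between flank groups. ACGT dyads, with an A before and a T after the CG, had the lowest level at 48.2% (48.0 ± 1.897, SD, n = 2), and GCGC dyads had the highest at 82.7% (83.1 ± 0.588, SD, n = 2). The groups lay in 3 tiers by the number of strands on which an A precedes the CG. This grouping was not among the planned comparisons. Of the 3 groups with an A on 1 strand, ACGG/CCGT had a level of 62.7%, while ACGC/GCGT was at 64.6% and the level of ACGA/TCGT was 65.2%. The 6 groups with no such A had levels from 74.2% in CCGG to 82.7% in GCGC.

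Averaged over dyads, the tiers were at 77.6% with no A (77.9 ± 0.772, SD, n = 2), 64.2% with an A on 1 strand (64.3 ± 1.44) and 48.2% with an A on both. The difference between the highest and the lowest group was 34.5 points, and it was 35.1 ± 1.31 points (SD, n = 2) within replicates. Neighbours in the order differed beyond the SD of their difference except for ACGC/GCGT and ACGA/TCGT, which differed by 0.225 ± 0.272 points, and GCGA/TCGC and TCGA, which differed by 0.114 ± 0.598 points. The widest steps between neighbours were those from ACGT to ACGG/CCGT with a replicate mean of 14.5 ± 0.689 points and from ACGA/TCGT to CCGG with 9.27 ± 1.26 points, which are the borders of the tiers.

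ACGT and TCGA have the same base composition and differ in the order of the flanking bases. In CG-only bins TCGA dyads had a level of 78.4% (79.4% in replicate 1 and 77.5% in replicate 2) and ACGT dyads had 49.3% and 46.7% in the same replicates. TCGA was thus 30.2 points above ACGT (30.5 ± 0.565, SD, n = 2). It was higher on 6 of 6 chromosomes and in 120 of 120 blocks of 1 Mb that held at least 10 dyads of each group. Of 1809 CG-only bins that held both, TCGA was higher in 1352 and ACGT in 406. The bins in which the 2 groups lay had similar CG levels, 69.7% for TCGA and 68.3% for ACGT.

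**Figure D1:**
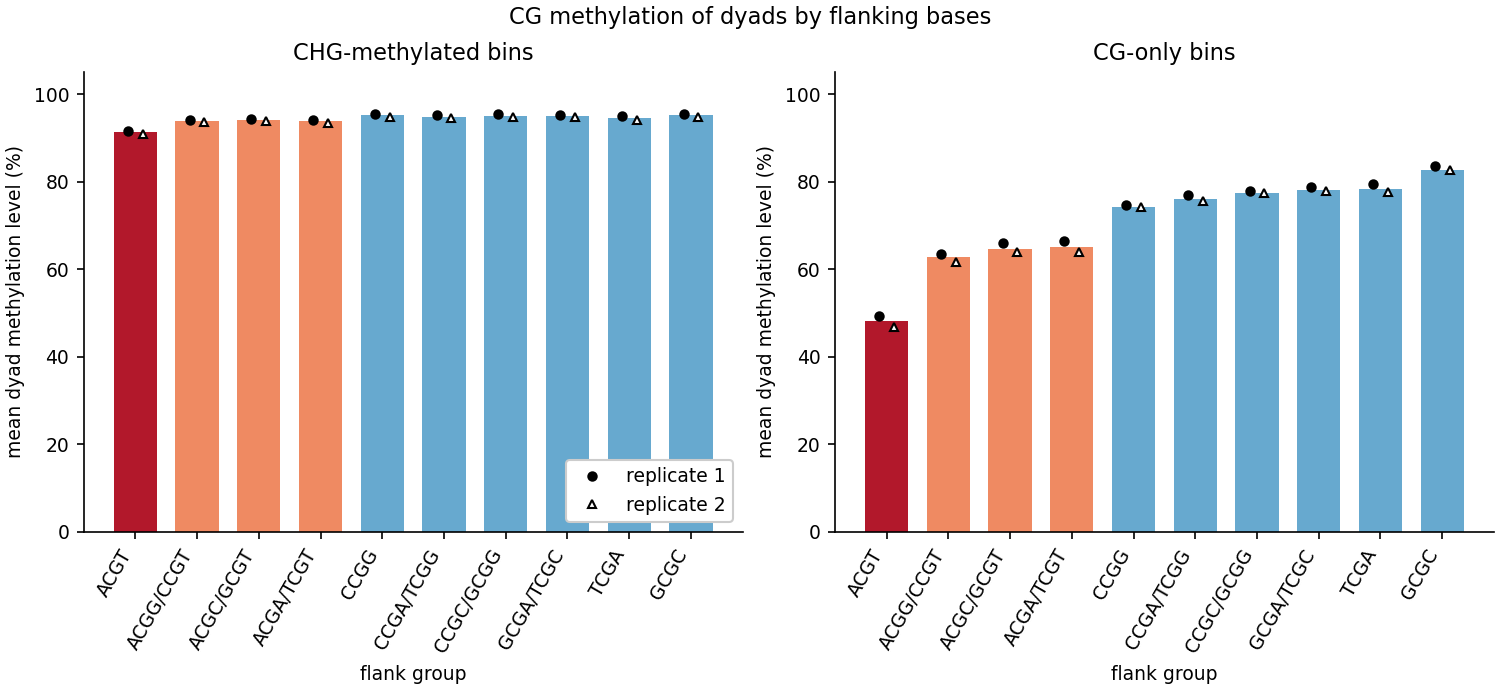
Mean methylation level of CG dyads (y axis, %) in each of the 10 flank groups (x axis), in CHG-methylated bins on the left and CG-only bins on the right. Bars are the merged report and symbols the separate replicates, with ACGT in dark red, groups with an A before the CG on 1 strand in orange and the others in blue. In CG-only bins the levels rise in 3 steps from 48.2% for ACGT to 82.7% for GCGC, and in CHG-methylated bins all groups lie between 91.3% and 95.2%.

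In asymmetric dyads with an A before 1 of the CGs, both cytosines had the lower value. In ACGG/CCGT dyads of CG-only bins the cytosine preceded by A was at 62.9% and its partner, preceded by C, was at 62.4%. In CCGG dyads, where both cytosines are preceded by C and followed by G, the level was 74.2%. ACGA/TCGT cytosines were at 65.3% and 65.1%, and those of TCGA dyads at 78.4%. The level of a cytosine followed the flanks of the whole dyad, and in CG-only bins the strands differed by 0.522 points or less in the mean of any group.

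The same tiers were seen in CHG-methylated bins with smaller differences. ACGT was again lowest at 91.3% (91.3 ± 0.506, SD, n = 2), the 3 groups with an A on 1 strand followed at 93.8% to 94.0% with ACGC/GCGT and not ACGA/TCGT the highest of them, and the 6 others lay between 94.6% in TCGA and 95.2% in CCGG. The spread across flank groups was 3.89 points (3.92 ± 0.0558, SD, n = 2). The tiers were at 94.99%, 93.9% and 91.3%. TCGA exceeded ACGT by 3.29 points (3.29 ± 0.0477, SD, n = 2), on 6 of 6 chromosomes and in 123 of 127 blocks.

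The top of the order differed between the classes. In CHG-methylated bins CCGG and GCGC differed by 0.0505 ± 0.0323 points with CCGG higher and with GCGC higher in 65 of 127 blocks, whereas in CG-only bins GCGC was 8.65 ± 0.190 points above CCGG and was higher in 89 of 113 blocks. In CHG-methylated bins CCGC/GCGG and GCGC differed by 0.0169 ± 0.0291 points, and ACGA/TCGT minus ACGG/CCGT was -0.0165 ± 0.0881 points, in both cases less than the spread between replicates.

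Within a group, levels by chromosome were close in CHG-methylated bins. There ACGT ranged from 90.7% on chromosome 6 to 92.2% on chromosome 4. In CG-only bins ACGT ranged from 46.5% on chromosome 4 to 49.3% on chromosome 3 over chromosomes 1 to 5 and was 57.4% on chromosome 6, where only 183 of its dyads lay. The highest level was on chromosome 6 in 9 of the 10 groups of CG-only bins, the exception being CCGG, for example with 75.0% in ACGA/TCGT, 80.4% in TCGA and 85.2% in GCGC.

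Dyads of intermediate level, defined as a mean of both strands from 20% to below 80%, were most frequent among ACGT at a minimum of 10 reads per strand. In CG-only bins they made up 24.9% of ACGT dyads (21.9 ± 2.34, SD, n = 2) and 9.07% of GCGC dyads (9.12 ± 1.87). The groups with an A on 1 strand held 19.0% to 22.8% and the other groups except GCGC 12.9% to 17.3%. In CHG-methylated bins the share was 6.80% in ACGT (7.33 ± 0.550), 3.31% to 3.57% in the groups with an A on 1 strand and 2.10% to 2.64% in the others.

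The spread of this share across groups was 15.8 points in CG-only bins (12.7 ± 0.468, SD, n = 2) and 4.70 points in CHG-methylated bins (4.78 ± 0.303). The replicate values rest on at least 5 reads per strand and the merged values on at least 10, and the share in replicate 2 was above that in replicate 1 in all 10 groups of both classes. Among dyads whose nearest other CG was more than 10 bp away, ACGA/TCGT held more intermediate dyads in CG-only bins (24.7%) than ACGT (22.1%). With a minimum of 20 reads, which left 156 dyads in CG-only bins, the share was 25% in ACGT and 50% in CCGG.

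**Figure D2:**
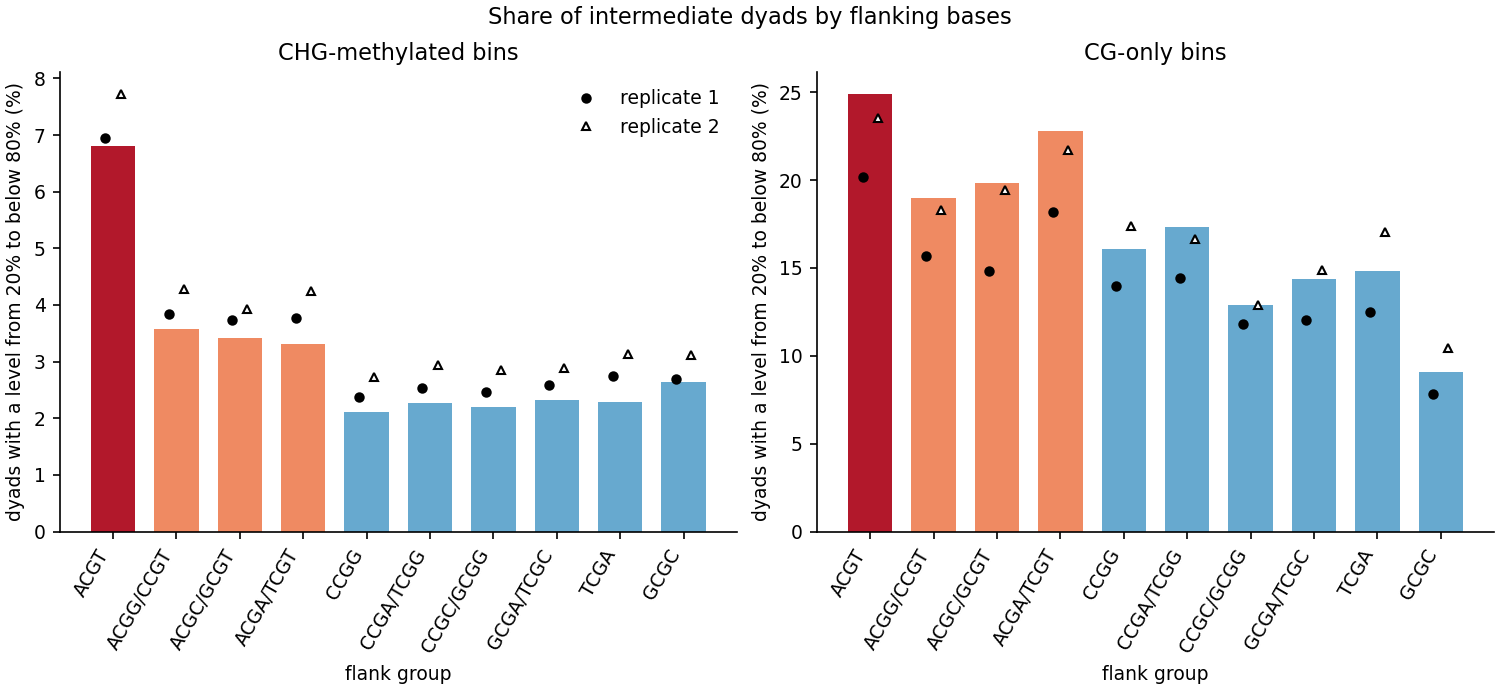
Share of dyads with a level from 20% to below 80% (y axis, %, with a different scale in each panel) by flank group (x axis), in CHG-methylated bins on the left and CG-only bins on the right. Bars are the merged report, symbols the separate replicates, and colours mark the number of strands with an A before the CG. ACGT has the highest bar in both panels, with 6.80% and 24.9%.

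The lower mean of ACGT in CG-only bins came with more unmethylated dyads as well as more intermediate ones. Of ACGT dyads 39.3% were below 20% (40.4 ± 0.694, SD, n = 2) and 28.9% had no methylated read on either strand, against 10.9% and 8.21% of GCGC dyads and 12.6% and 7.94% of TCGA dyads. At the other end, 35.9% of ACGT dyads and 80.03% of GCGC dyads were at 80% or more. The distribution had 2 ends in every group, and ACGT held 35.8% of its dyads below 10% and 25.5% at 90% or more. When the dyads below 20% were set aside, the remaining ACGT dyads had a mean of 77.9%, the groups with an A on 1 strand 83.7% to 85.4%, and the others 87.9% to 92.5%.

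**Figure D3:**
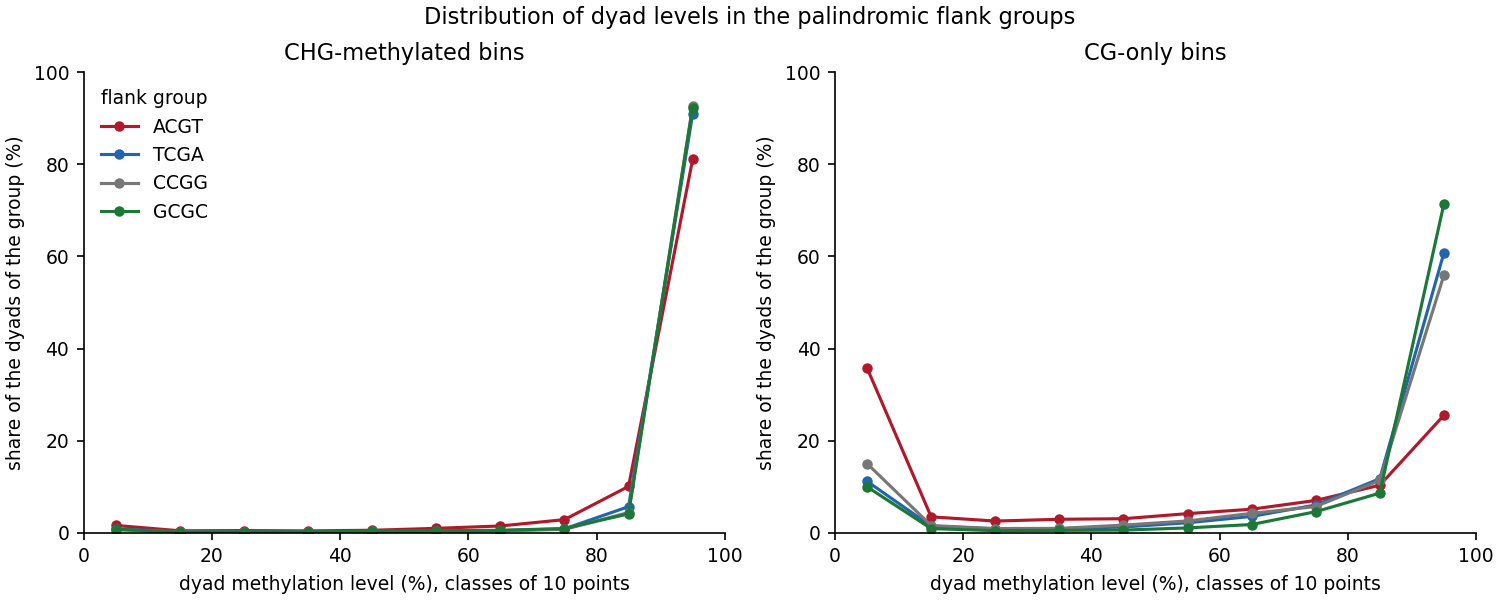
Distribution of dyad levels (x axis, %, in classes of 10 points) as a share of the dyads of each palindromic flank group (y axis, %), in CHG-methylated bins on the left and CG-only bins on the right. Each line is a flank group in the merged report. In CG-only bins 35.8% of ACGT dyads are below 10% and 25.5% at 90% or more, while for GCGC these shares are 9.99% and 71.4%.

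Replicates were used in turn to choose intermediate dyads and to read them again. Of 3739 dyads of CG-only bins chosen as intermediate in replicate 1, 42.8% were intermediate in replicate 2, against 13.9% of the dyads not chosen. In CHG-methylated bins the shares were 57.2% of 7056 dyads and 2.22%. For ACGT in CG-only bins they were 46.2% of 416 and 17.7%, and for GCGC 27.6% of 98 and 8.87%. Choosing in replicate 2 gave 34.3% and 10.2% over all CG-only dyads.

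The dyads nearest 50% in each class were taken among those with at least 10 reads on both strands in both replicates, of which there were 12324 in CHG-methylated bins and 47 in CG-only bins. Dyads equally near 50% were taken in order of smaller strand difference. The dyads shown from the CHG-methylated class were all at 50%, so that the likeness of their strands was favoured by the choice. Those of the CHG-methylated class and then those of the CG-only class are shown because a mean near 50% may come from strands that are both partly methylated or from strands that differ.
AnagrOXF.S2:26460000-26460001 (ACGT): ccggctgnnnttgACGTtggttgcganacg
AnagrOXF.S3:1820281-1820282 (CCGC/GCGG): caggcgcgcgcgcGCGGggncacccctcag
AnagrOXF.S3:1820275-1820276 (GCGC): cacccgcaggcgcGCGCgcgcggggncacc
AnagrOXF.S6:6657087-6657088 (GCGC): tcaanncaagctaGCGCcttgtgnccttca
AnagrOXF.S6:9871473-9871474 (ACGA/TCGT): cctgctcctggagACGAcaancattggnnn
AnagrOXF.S6:6657056-6657057 (CCGG): gtcaggatgnncaCCGGcagctancatctc
In the ACGT dyad on AnagrOXF.S2, 19 of 38 reads were methylated on the plus strand and 11 of 22 on the minus strand, with dyad levels of 45.8% and 55% in replicates 1 and 2. The neighbouring dyads on AnagrOXF.S3 had 14 of 27 and 13 of 27, and 15 of 28 and 13 of 28 methylated reads on the plus and minus strands. The GCGC dyad on AnagrOXF.S6 had 15 of 27 and 12 of 30 methylated reads but dyad levels of 31.9% and 65.4% in the replicates. The ACGA/TCGT dyad had 18 of 27 and 18 of 45 methylated reads, and the CCGG dyad 15 of 24 and 16 of 33. All 6 were partly methylated on both strands, and Fisher's exact test of their strands gave an adjusted p of 1 for each. Whether these dyads lie in a gene or a TE was not determined, since the gene and TE coordinates used here covered only a part of the assembly.

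A strand difference within a dyad was tested with Fisher's exact test of methylated and unmethylated reads on the plus against the minus strand, with Benjamini-Hochberg adjustment over all 1386825 paired dyads. This compares the reads of the pooled libraries and not plants. At an adjusted p below 0.05, 43 dyads were called, or 0.0031% of those tested, and 3786 had an unadjusted p below 0.05. The smallest p that 10 reads against 10 reads can give in this exact test is 1.08e-05, while the largest unadjusted p among the called dyads was 1.33e-06. By depth alone 82.7% of the dyads could reach it, given a complete difference between fully methylated and unmethylated strands. This share takes no account of the levels, and it was 83.3% in bins with both contexts below 5%. A difference was therefore not detectable at the shallowest dyads, and a partial difference needed more reads than a complete difference.

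In CHG-methylated bins 38 dyads were called, or 0.00986%. In CG-only bins Fisher's exact test called 0 of 63358 dyads (0%), and 519 dyads, or 0.819%, had an unadjusted p below 0.05. At least 20 reads on each strand were found in 156 dyads of CG-only bins and in 19216 of CHG-methylated bins. By depth alone 83.0% and 81.7% of the dyads could reach the largest called p, given a complete difference between strands. The part of depth in the unequal numbers of calls was not tested. Of the other calls 4 were in bins with CG below 50%, and 0 of them in bins with both contexts below 5%, where 109 dyads had an unadjusted p below 0.05. Called dyads had a median of 45 reads per strand against 13 over all paired dyads, and 11 of the 43 lay on chromosome 6. In CHG-methylated bins chromosome 6 held 10304 of 46956 CCGC/GCGG dyads and 10515 of 55633 ACGA/TCGT dyads. Its share of all tested dyads was not computed, so the 11 calls are not read as a concentration there. With dyads over 27 reads on a strand set aside 2 dyads were called, and with each strand thinned to 10 reads 0 were called.

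By flank group, 11 calls were in CCGC/GCGG, 10 in CCGA/TCGG and 6 in CCGG, the groups with a C before the CG on at least 1 strand and an A on none, a set singled out after its values were seen. They gave 27 of the 43 calls from 33.3% of the tested dyads, with 0.00585% called. ACGA/TCGT had 5 calls, ACGT 4, GCGA/TCGC 3, ACGG/CCGT 2, TCGA and GCGC 1 each, and ACGC/GCGT 0. As shares of the tested dyads of each group, CCGG had 0.00614%, CCGC/GCGG 0.00582%, CCGA/TCGG 0.00571% and ACGT 0.00488%. ACGT was thus called at a share close to those of the set. The remaining groups ran from 0% in ACGC/GCGT to 0.00271% in ACGA/TCGT. In 12 of the called dyads 1 strand had no methylated read.

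In CHG-methylated bins 33 called dyads had at least 5 reads on both strands and the same sign in both replicates. The 3 of them with the largest strand difference are shown with the reads of each strand. No genome sequence was checked at these sites.
AnagrOXF.S6:8112987-8112988 (CCGA/TCGG): cttggaagagcgcCCGAagnncctcggcat
AnagrOXF.S6:5201931-5201932 (CCGG): gaaggggcaggncCCGGnccacacaagagt
AnagrOXF.S6:8130237-8130238 (CCGG): ccgattgtgccggCCGGnnctttgctgcat
At 8112987 the plus strand had 0 of 15 methylated reads, which allows a level of up to 20%, and the minus strand 11 of 12 (91.7%, 95% Wilson interval 64.6% to 98.5%, for counting error only). Replicates 1 and 2 gave 0% on the plus strand and 100% and 83.3% on the minus strand, and Fisher's exact test gave an adjusted p of 0.0319. At 5201931 the plus strand had 0 of 24 methylated reads and the minus strand 10 of 11, with an adjusted p of 0.0032 by the same exact test. At 8130237 the plus strand had 16 of 18 and the minus strand 0 of 12 (exact test, adjusted p = 0.0356), with 80% and 100% on the plus strand in the replicates. All 3 lay on chromosome 6 in bins with CHG levels of 61.5% to 74.9%, and 2 of them belong to the palindromic CCGG group.

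Apart from single dyads, the size of strand differences was set against the difference that the draw of reads gives when both strands have the same level, computed from the hypergeometric distribution at the depth of each dyad. In CG-only bins the mean absolute strand difference was 6.96 points and the draw of reads gives 6.92, a ratio of 1.01. Over intermediate dyads alone it was 15.1 points against 14.99, and the ratio ranged from 0.977 in TCGA to 1.04 in ACGA/TCGT. For ACGT, with the most intermediate dyads, it was 15.2 points against 15.1. Partly methylated dyads of CG-only bins thus had strands that differed about as much as the draw of reads gives. Reads of opposite strands were not paired by molecule, so that similar strand levels do not tell whether single molecules were hemimethylated.

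In CHG-methylated bins the ratio was 1.03 over all dyads and 1.19 over intermediate dyads. There it was lowest in ACGT with 1.09 and highest in CCGG with 1.48, followed by CCGC/GCGG with 1.35 and GCGC with 1.30. A strand difference of at least 50 points was seen in 346 dyads of CHG-methylated bins, or 0.0898%, and in 127 of CG-only bins, or 0.2004%.

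Large differences were seen again in the other replicate mainly in CHG-methylated bins. There 493 dyads differed by at least 50 points in replicate 1, with a mean of 59.9 points, and in replicate 2 the same dyads had a signed mean difference of 19.9 points, with 305 in the same direction and 97 of them still at 50 or more. In CG-only bins 279 dyads had a mean difference of 59.0 points in replicate 1 and a signed mean of 1.81 points in replicate 2, with 113 in the same direction and 8 still at 50 or more. By flank, the difference left in replicate 2 was 34.4 points in CCGC/GCGG, 32.5 in CCGG and 28.7 in CCGA/TCGG, and from 8.02 to 22.0 points in the other groups of CHG-methylated bins. With replicate 2 as the choosing replicate the same 3 groups kept 28.8, 29.2 and 24.3 points.

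The strands of asymmetric groups differed by small amounts that had the same sign in both replicates in 4 groups of CHG-methylated bins. In these groups a purine (A or G) after the CG went with the higher strand, a grouping that was not among the planned comparisons. The same strand also has a purine before its CG in each of them. The base before and the base after thus cannot be told apart. In CHG-methylated bins the level of the strand with the purine exceeded that with the pyrimidine by 0.386 points over the 4 groups in which they differ (0.385 ± 0.0409, SD, n = 2), on 6 of 6 chromosomes and in 119 of 127 blocks of 1 Mb. In CG-only bins the difference was 0.342 points (0.381 ± 0.0542) and positive in 87 of 124 blocks. In bins unmethylated in both contexts it was 0.0367 points (0.0376 ± 0.00918), between levels of 0.320% and 0.283%.

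In CHG-methylated bins the CGA strand exceeded the CGC strand by 0.477 points in GCGA/TCGC, the CGG strand exceeded the CGT strand by 0.418 points in ACGG/CCGT, and the CGA strand exceeded the CGT strand by 0.382 points in ACGA/TCGT. In CCGC/GCGG the CGC strand minus the CGG strand was -0.274 points. Each of these had the same sign in both replicates. In CCGA/TCGG and ACGC/GCGT, whose strands are both followed by a purine or both by a pyrimidine, the differences were 0.0566 and -0.0331 points in the merged report and changed sign between replicates. The palindromic groups, in which plus was compared with minus, differed by 0.0670 points or less in these bins. In CG-only bins the groups with a purine on 1 strand gave 0.522 (GCGA/TCGC), 0.516 (ACGG/CCGT), 0.190 (ACGA/TCGT) and -0.156 points (CCGC/GCGG). The groups without that contrast reached similar sizes to the last 2 of these, with 0.250 in CCGA/TCGG, 0.179 in ACGC/GCGT and -0.256 in GCGC.

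**Figure D4:**
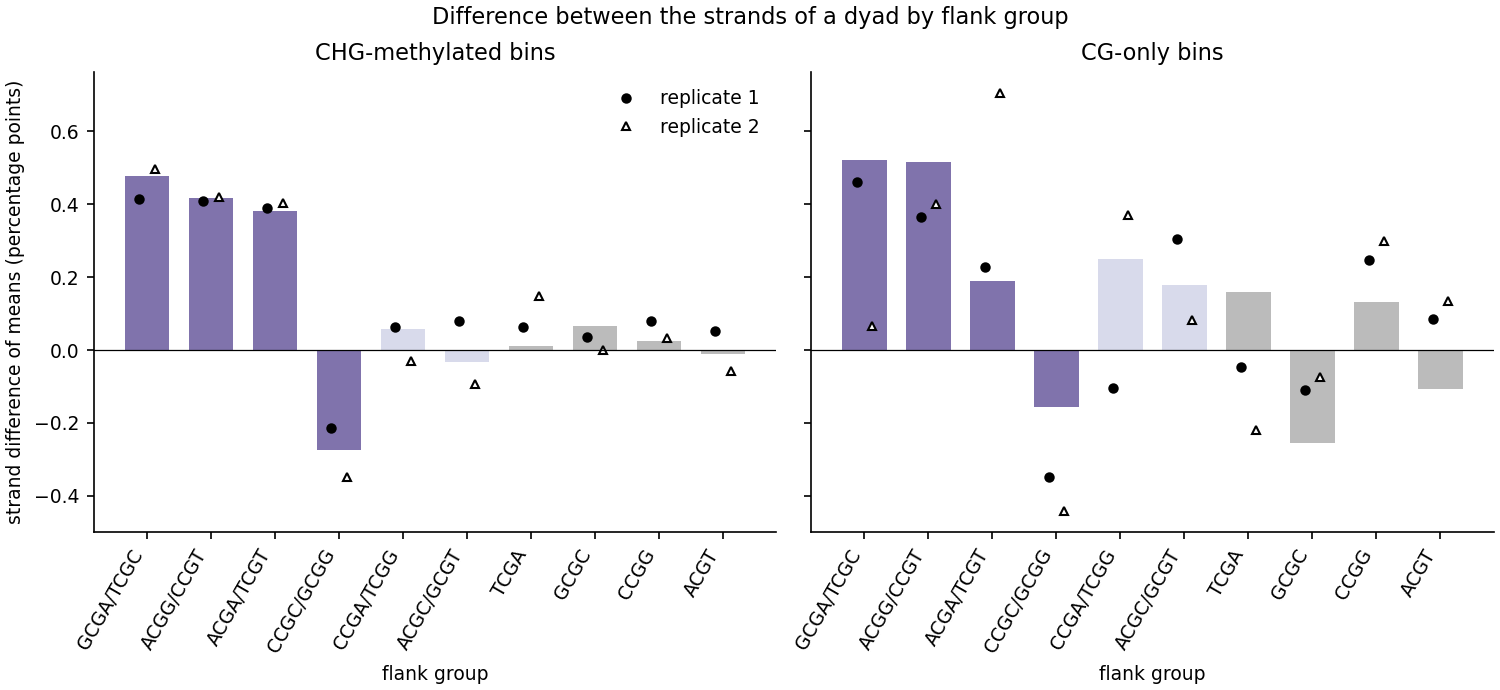
Difference between the strands of a dyad in the mean of each flank group (y axis, percentage points), as the strand whose following base comes first in the alphabet minus the other, or plus minus minus strand for the 4 palindromic groups in grey. Bars are the merged report and symbols the separate replicates, with CHG-methylated bins on the left and CG-only bins on the right. Groups with a purine on 1 strand and a pyrimidine on the other are in dark purple, and their bars in CHG-methylated bins run from -0.274 to 0.477 points.

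Dyad level also varied with the distance to the nearest other CG. In CG-only bins ACGT dyads with another CG at 2 to 5 bp had a level of 71.5% (71.6 ± 4.19, SD, n = 2), which decreased to 62.5% at 6 to 10 bp, 48.0% at 11 to 20 bp and 35.2% at 21 to 40 bp (34.3 ± 0.760). GCGC dyads were at 91.3%, 88.3%, 85.0% and 73.6% in the same classes. From 2 to 5 bp through 21 to 40 bp the level decreased at each step in all 10 groups, in both bin classes. Over all groups of CG-only bins it went from 85.3% to 58.5%, and in CHG-methylated bins from 95.4% to 92.8%.

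ACGT was the lowest of the 10 groups in each of 6 classes of distance in both bin classes, the last of which, at 81 bp or more, held 81 ACGT dyads in CG-only bins with a level of 25.9%. The difference between TCGA and ACGT in CG-only bins was 17.9 points at 2 to 5 bp and 33.4 points at 11 to 20 bp. In CHG-methylated bins it was 1.67 and 3.56 points at the same distances. Median distances were 18 bp for ACGT, 15 bp for TCGA and 11 bp for GCGC in CG-only bins, and 12, 12 and 6 bp in CHG-methylated bins. When only dyads with no other CG within 10 bp were kept, the spread across groups in CG-only bins was 37.7 points.

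**Figure D5:**
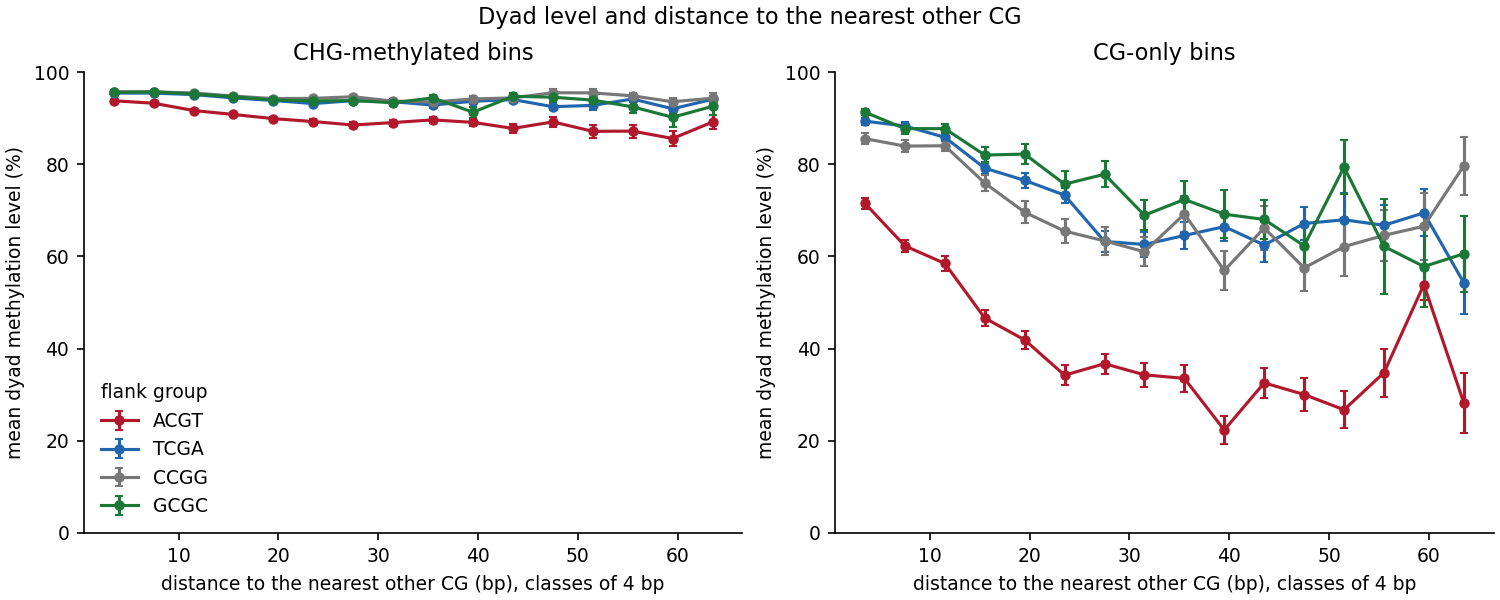
Mean dyad level (y axis, %) by distance to the nearest other CG (x axis, bp, in classes of 4 bp with at least 20 dyads) for the 4 palindromic flank groups, in CHG-methylated bins on the left and CG-only bins on the right. Bars are the standard error over dyads of the merged report, which are not replicates. In CG-only bins the ACGT line starts at 71.5% and lies under the other groups in each class.

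The bases next to the flanks were also read, as C or G against A or T. In CG-only bins levels decreased in all 10 groups as the number of such second flanks that were C or G went from 0 to 2. ACGC/GCGT went from 70.2% through 68.3% to 54.2%, CCGC/GCGG from 81.2% to 69.2%, TCGA from 81.3% to 73.3% and ACGT from 52.7% to 45.4%. In CHG-methylated bins ACGT went from 90.4% through 91.7% to 91.5% and GCGC from 95.5% to 94.6%, so that the groups shared no direction. The distance to other CGs was not held fixed here.

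The state of the nearest other paired dyad in the bin went with the level in each group of CG-only bins. ACGT dyads were at 55.9% beside a dyad at 80% or more and at 25.7% beside a dyad below 20%. For TCGA the values were 84.9% and 53.4%, and for GCGC 88.5% and 58.2%. ACGT dyads beside a methylated neighbour were thus below GCGC dyads beside an unmethylated one.

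The order of groups depended on the CG level of the bin. In bins of CG from 90% with CHG below 10%, ACGT was at 90.1% and GCGC at 97.3%, and in those of CG from 50% to below 65% they were at 36.5% and 74.4%. Bins with CG below 50% were taken at any CHG level, unlike those above. In bins with CG from 5% to below 20% the highest group was TCGA at 15.3%. The others lay between 7.08% in ACGG/CCGT and 10.8% in GCGA/TCGC, with ACGT at 7.23%. In bins with CG from 35% to below 50% TCGA was at 50.5% and ACGT at 30.6%. ACGT was also lowest at each step of CG level in CHG-methylated bins, from 56.1% in bins of 50% to below 65% to 94.0% in bins of 90% or more. In those of 50% to below 65% it was only narrowly lowest, since GCGC was at 56.8%. The tiers overlapped there, with the groups of the middle tier at 56.8% to 59.2%. The highest group at that step was TCGA at 62.3%.

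Values just inside and outside the limits of the classes are given with no test. With CG of at least 50%, ACGT was at 60.6% in bins of CHG from 5% to below 10% and at 67.5% from 10% to below 15%, and TCGA at 75.9% and 78.6%. Around the CHG limit of 30%, ACGT was at 75.0% just below and 79.4% just above it.

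In bins with CG and CHG both below 5%, TCGA had the highest level, 0.618% (0.614 ± 0.00607, SD, n = 2), and the other groups had 0.246% to 0.363%. Intermediate dyads made up 0.526% of TCGA dyads there and 0.102% to 0.226% of the others. ACGT, at 0.274% (0.266 ± 0.0142), did not stand apart in these bins. The level there includes cytosines that escaped conversion, which were not measured apart.

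The share of all dyads of a group that had enough reads on both strands ranged from 26.0% in CCGG to 32.4% in ACGT, and the median depth of used dyads was 13 reads per strand in each group. ACGT and TCGA dyads were placed in CG-only bins more often (5.98% and 5.59% of the used dyads) than CCGG (3.17%), and less often in bins with both contexts below 5% (46.2% and 49.1% against 59.0%). With a minimum of 5 reads the spread of levels across groups in CG-only bins was 35.5 points.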

How the data were processed

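EM-seq reads of 2 replicates of wild-type Oxford strain thalli were trimmed, mapped and deduplicated by the authors, and read counts per cytosine, split into methylated and unmethylated, were deposited without further scaling for each replicate and for both merged. The submitters' processing notes name Trim Galore, Bismark, Bowtie2, SAMtools 1.9 and bedtools 2.27.1. No columns of other samples were used.

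Each cytosine of a CG was paired with its partner on the other strand when both had at least 10 reads (5 in replicate reports). The level of a dyad was the mean of its strand levels. Bins of 1 kb needed 5 covered CG and 5 covered CHG sites. Flanks were compared as descriptions, with an SD from 2 replicates that is imprecise. Strands were compared per dyad by a two-sided Fisher's exact test with Benjamini-Hochberg adjustment, which compares reads and not plants. Printed dyads were the 3 per bin class with the largest called strand difference seen in both replicates and the 3 nearest 50%. Ties among the latter went to the smaller strand difference. Flank groups, limits and lists were chosen with earlier results of these data known. Sequences were rebuilt from the trinucleotides of the report, since no genome was used here. The alternatives were other read minima, bins, limits, replicates, chromosomes and distances. The calculations were tested on simulated data. PyArrow 21.0.0 and pandas 2.3.3 read the tables, SciPy 1.17.1, NumPy 2.4.6 and Numba 0.67.0 were used for the calculations and Matplotlib 3.10.9 for the plots, all under Python 3.11.15.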

Additional observations from a re-analysis of the deposited data

Results flagged for a closer look

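The comparisons used the 6 chromosome scaffolds only. On the unplaced scaffolds 14 of 16352 paired dyads, or 0.0856%, had a strand difference at an adjusted p below 0.05 by Fisher's exact test with Benjamini-Hochberg adjustment over those dyads alone, against 0.0031% on the chromosomes. These dyads entered no comparison, and the 2 shares come from adjustments over different numbers of dyads.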

How the results depend on the processing

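ACGT had the lowest level in 16 of 16 alternatives in CHG-methylated bins and in 15 of 16 in CG-only bins, and GCGC the highest in 15 of 16 in CG-only bins. The exception was a minimum of 20 reads, which left 156 dyads in CG-only bins, with ACGA/TCGT lowest at 56.0% and TCGA highest at 80.2%, and with 25% of ACGT and 50% of CCGG dyads intermediate. Dyads with the nearest other CG more than 10 bp away, and leaving a dyad out of the CG level of its own bin, were alternatives chosen after seeing the data. The spread of levels in CG-only bins (34.5 points) was 24.2 with 20 reads, 31.2 within bins, 37.7 with distant CGs and 34.2 to 36.0 without a replicate. In CHG-methylated bins (3.89 points) it was 4.02 with 5 reads, 4.97 with 20 reads, 3.13 within bins, 3.52 with CHG limits of 50% and 5%, 3.83 in bins of 500 bp, 3.49 in bins of 2 kb, 3.63 on chromosomes 1 to 5, 4.89 with distant CGs and 3.88 to 3.95 without a replicate. The spread of the intermediate share in CG-only bins (15.8 points) was 15.3 both with 5 reads and with thinning to 10 reads, 29.2 with 20 reads, 12.1 with bins classed in the other replicate, 14.4 in bins of 2 kb, 20.1 with limits of 10% and 90%, 11.3 with 30% and 70%, 14.003 with distant CGs, 14.6 with the own dyad left out and 12.4 to 13.1 without a replicate. In CHG-methylated bins (4.70 points) it was 7.87 with 20 reads, 4.13 with thinning, 4.12 with CHG limits of 50% and 5%, 4.22 on chromosomes 1 to 5, 10.6 with limits of 10% and 90%, 2.22 with 30% and 70%, 6.41 with distant CGs and 4.57 to 4.99 without a replicate. The directed strand difference of GCGA/TCGC in CG-only bins (0.522 points) was 0.0672 without replicate 1 and 0.460 without replicate 2. The largest difference of any group there, which was not always that group, was 2.51 with 20 reads (CCGA/TCGG), 0.345 in size with bins classed in the other replicate (CCGC/GCGG) and 0.460 to 0.705 without a replicate (GCGA/TCGC and ACGA/TCGT). In CHG-methylated bins (0.477 points) it was 0.785 with 20 reads, 0.566 with reads pooled and 0.414 to 0.496 without a replicate. Dyads with a strand difference numbered 43, and 69 with 20 reads, 2 with at most 27 reads, 0 with thinning and 9 to 11 without a replicate. Fewer dyads or reads enter by construction with 20 reads, thinning, a maximum of 27 reads or a replicate left out, and the cause of the other changes was not tested. A dyad with 10 reads on each strand could not reach the adjusted threshold.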
